A study of Caenorhabditis elegans with 48 samples.

Results

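The genes described here are the glutathione transferases and the classical antioxidant enzymes of Caenorhabditis elegans: every gene whose symbol begins with gst-, gsto-, sod-, ctl-, prdx-, trx- or trxr-, together with gcs-1, gsr-1 and gss-1, and apart from 2 gst genes not analysed here. In the annotation 66 symbols met that rule. Of these, 48 were listed in at least 1 of the 4 strain tables, out of 13129 genes listed in all. They comprise 28 gst genes, 2 omega-class gsto genes, 4 superoxide dismutases, 3 catalases, 3 peroxiredoxins, 3 thioredoxins, 2 thioredoxin reductases and 3 genes of glutathione synthesis and reduction. The other 18 symbols, among them sod-5 and trx-1, were listed in no table. Symbols chose the members and no measured value did, but the set was proposed with earlier results of these data known.

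Messenger RNA of whole young adults was sequenced in 48 libraries, 3 replicates in each of 16 groups, to learn how the heat response depends on the heat shock factor HSF-1 in the soma or in the germline. JTL611 carries hsf-1::aid::gfp on chromosome I, which tags HSF-1 with an auxin-inducible degron and a fluorescent protein, and the transgene ieSi57, which drives the plant F-box protein TIR1 fused to mRuby from the eft-3 promoter in the soma. CA1200 has the same ieSi57 transgene and no tagged HSF-1. JTL621 carries hsf-1::aid::gfp and ieSi38, which drives TIR1 fused to mRuby from the sun-1 promoter in the germline, and CA1199 has ieSi38 without the tag. All 4 strains also carry unc-119(ed3) with a Cbr-unc-119(+) copy on the transgene, so that none of them is wild type. Each strain was compared after 2 h on auxin or on its solvent ethanol, with 30 min at 34 °C (heat-shocked) or without it (unheated, 20 °C). Synchronised larvae had grown for 51 h before the plates were changed. Unheated animals were collected straight after the 2 h, so heat-shocked animals spent 30 min longer on the plates. The labels do not say whether replicates were separate cultures, and p-values here measure the spread between these libraries, which may be technical.

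Glutathione transferases join the tripeptide glutathione to electrophilic compounds, including products of lipid oxidation and foreign chemicals, which can then be exported. Glutathione is made by glutamate-cysteine ligase (gcs-1) and glutathione synthetase (gss-1) and kept reduced by glutathione reductase (gsr-1), while superoxide dismutases turn superoxide into hydrogen peroxide and catalases, peroxiredoxins and the thioredoxin system remove peroxides. In C. elegans the transcription factor SKN-1 drives many of these genes in the intestine and other tissues, and gst-4 and gcs-1 are its usual reporters.

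Between 9000611 and 24025791 reads fell on listed genes in a library (median 16986626), and the 48 members took 0.160% to 0.239% of them. A count of 3 reads, the most that a count of 0 allows, was 0.127 to 0.478 CPM (counts-per-million) depending on the library, for counting error only. Ribosomal RNA genes took 3.89% to 34.5% of the reads, and the highest shares were in JTL621 on auxin with heat, replicate 2 (34.5%), and CA1200 on auxin with heat, replicate 3 (18.5%). The heat shock genes hsp-16.2 and hsp-70 checked the labels. In heat-shocked JTL611 on auxin hsp-16.2 stood at 0.633 to 0.706 CPM, against 138 CPM or more in every other heat-shocked library and at most 2.40 CPM in every unheated one. The degron acts on the protein, so the hsf-1 transcript, at 20.1 to 58.1 CPM in heat-shocked and 30.5 to 49.1 CPM in unheated libraries, does not check the depletion.

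Levels of the members spread widely. Per kilobase of exon, in unheated animals on ethanol, prdx-2 (the cytosolic peroxiredoxin) had a median over the 4 strains of 649 CPM per kb. It was followed by sod-1 (cytosolic copper/zinc superoxide dismutase) at 224, gst-1 at 186, prdx-3 (mitochondrial peroxiredoxin) at 168, sod-2 (mitochondrial manganese superoxide dismutase) at 119 and gsr-1 at 115 CPM per kb. Each strain's table was normalised separately, so these levels set across strains carry that difference. The gap between neighbours was not always larger than the range over strains: gsr-1 spanned 114 to 116 CPM per kb and sod-2 spanned 111 to 123. At the other end sod-4, the extracellular superoxide dismutase, stood at 2.01 CPM per kb, the inducible mitochondrial sod-3 at 1.52, gst-12 at 0.831 and gst-8 at 0.151. The stress reporters were of middle abundance, with gcs-1 at 40.9 and gst-4 at 30.4 CPM per kb.

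**Figure D1:**
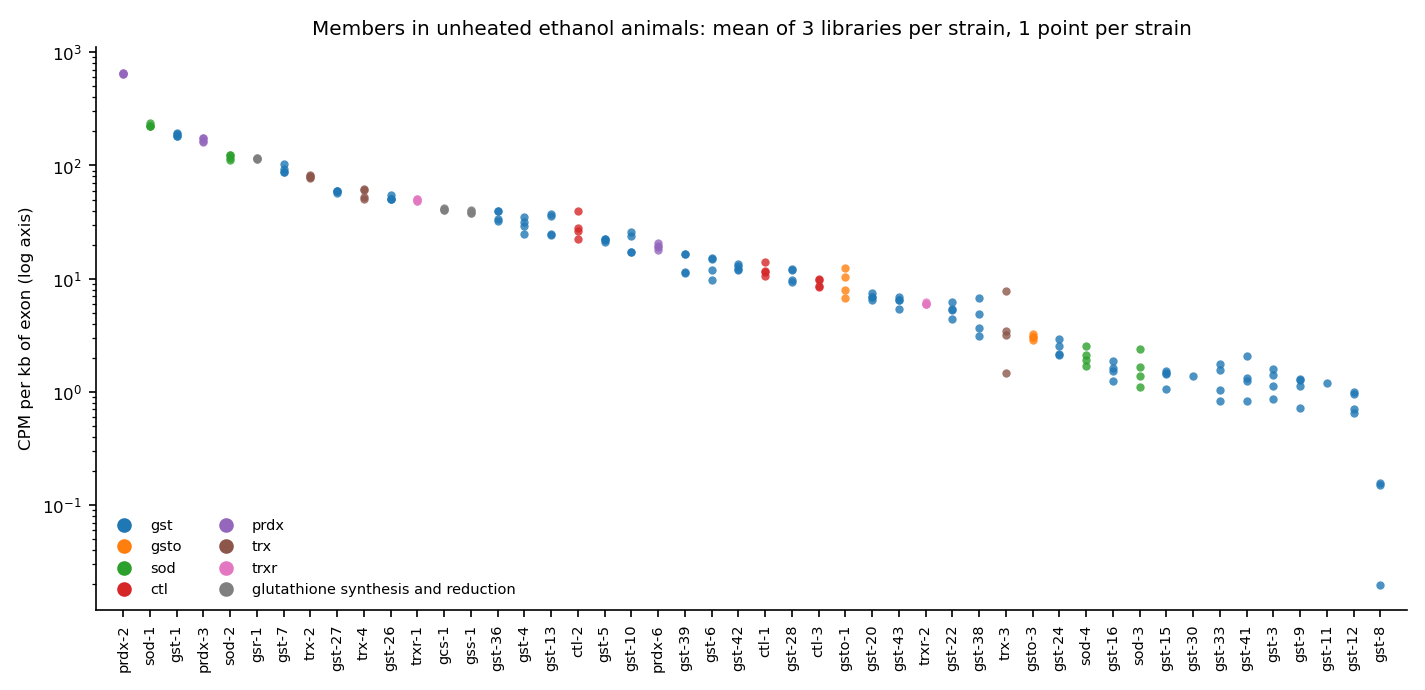
Level of each member on a log axis in CPM per kilobase of exon, in unheated animals on ethanol, with 1 point for the mean of 3 libraries in each strain that lists the gene and members ordered by their median. Levels run between 649 CPM per kb for prdx-2 and 0.151 CPM per kb for gst-8, and the strains' points lie close together for the abundant members.

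How far a member's group means spread over the 16 groups varied widely, and no test by class was made. The highest group mean of gcs-1 was 1.12 times its lowest, and the ratio was 1.14 for gsr-1, 1.199 for prdx-2, 1.21 for trxr-1 (the cytosolic thioredoxin reductase, the only selenoprotein of the worm) and 1.22 for sod-1. For the transferases gst-36, gst-4 and gst-5 it was 2.21, 2.89 and 3.77. Both kinds held other values too: the antioxidant genes sod-3 and ctl-2 had ratios of 2.81 and 2.01, and the transferases gst-42 and gst-43 had 1.41 and 1.43. The thioredoxin trx-3 had a ratio of 9.78, over libraries that ran between 0.194 and 16.6 CPM, and no comparison called it. All these ratios also hold differences between strains, whose tables were normalised separately. In unheated ethanol animals alone ctl-2 spanned 22.3 to 39.5 CPM per kb over strains, sod-3 1.1 to 2.42 and trx-3 1.47 to 7.71. For gst-5 that span was 21.1 to 22.6 and for gst-36 32.4 to 39.98. The group means of sod-3 were low, at 0.757 to 2.13 CPM. The sum over all members was 1874 to 2472 CPM in the 48 libraries, and the group means of that sum lay between 1944 and 2223 CPM.

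Tests were made within each strain with limma on log2(CPM + 1), a scale that understates the change of low genes. The calling threshold was a Benjamini-Hochberg adjusted p of 0.05 over all genes tested in the strain. Members with a mean of at least 1 CPM entered: 42 in JTL611, 41 in CA1200, 42 in JTL621 and 41 in CA1199, of which 38 were tested in all 4 strains. The members gst-8, gst-11 and gst-30 were tested in none, and every other member in at least 1 strain.

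Over the 8 heat comparisons 18 members were called at least once, 7 of them higher and 11 lower after heat, and no member was called in both directions. How many of all genes were called at least once over the 8 was not counted, so the 18 cannot be read as an excess. All genes together also had more lower than higher calls in each of these comparisons, with 2.24% to 9.57% of genes called higher and 4.17% to 14.4% lower. The calls fell mainly on transferases, which are also most of the members (28 gst and 2 gsto genes of 48). Among them gst-36 rose in 6 comparisons, and gst-28, gst-10, gst-4, gst-26 and gsto-1 fell in 5, 4, 4, 3 and 3. Of the antioxidant enzymes, trxr-1 and sod-4 were called, each once and each higher. No peroxiredoxin, catalase or thioredoxin and none of gcs-1, gss-1 and gsr-1 was called. Other settings added ctl-2 in JTL621 on ethanol when only the libraries compared were fitted (-0.33, adjusted p = 0.0368) and gss-1 in CA1200 on ethanol under quantile normalisation (-0.22, adjusted p = 0.0221).

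On ethanol CA1199 had 4 members called higher and 7 lower of 41 tested (9.76% and 17.1%), against 3.94% and 14.4% of all genes tested. JTL621 had 1 higher and 4 lower of 42, against 2.54% and 7.43% of all genes, and CA1200 had 1 higher and 2 lower of 41, against 5.73% and 7.51%. In JTL611 on ethanol none of 42 was called, against 2.31% higher and 4.17% lower over all genes. There limma gave 3 members an unadjusted p under 0.05, beside 2391 of 12010 genes, and limma-voom on the recovered reads called 0. Apart from the higher calls of CA1199, which are 4 genes, these shares lie near or below those of all genes. The median log2 fold change of the members was 0.03 in CA1199, 0.00 in JTL621, -0.05 in CA1200 and 0.08 in JTL611, beside 0.01, 0.01, -0.01 and 0.00 for all genes.

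On auxin, CA1199 had 2 members called higher and 10 lower of 41 (4.88% and 24.4%), against 3.83% and 12.5% of all genes. JTL621, whose germline HSF-1 is a degron target on auxin, had 3 higher and 1 lower of 42, against 6.22% and 11.3%, and CA1200 had 2 higher and 3 lower of 41, against 9.57% and 9.86%. In JTL611, whose somatic HSF-1 is a degron target on auxin, none of 42 was called, against 2.24% higher and 5.4% lower over all genes. There limma gave 4 members an unadjusted p under 0.05, beside 2509 of 12010 genes, and limma-voom called 0. Without the JTL621 library of 34.5% ribosomal RNA the split in that strain became 1 higher and 4 lower. The counts also moved with single libraries elsewhere: leaving out 1 library at a time gave 5 calls in CA1199 on ethanol without unheated replicate 2, 5 in CA1199 on auxin without unheated replicate 3 and 7 without heat-shocked replicate 2. It gave 2 in CA1200 on auxin without heat-shocked replicate 2 and 3 without unheated replicate 1, 2 in JTL621 on auxin without either replicate 3, and 0 to 2 in JTL621 on ethanol whichever of the 6 libraries was left out.

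Same-numbered libraries deviated together in both heat comparisons of CA1200 and JTL611 (correlations above 0.1 in all 3 pairs), and with the replicate number as a block CA1200 had 6 members called on ethanol and 10 on auxin, and JTL611 had 1 on each. The share of all genes called with the block is not given here, so these counts cannot be read as particular to the members. The added gene in JTL611 was gst-20 in both cases. In CA1200 the block added gst-1 and gst-20 (higher) on both plates, gst-10 (lower) on ethanol, and gst-13, gst-38 and gst-5 (lower) on auxin, where gst-5 changed by -0.64 (limma adjusted p = 0.0257).

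**Figure D2:**
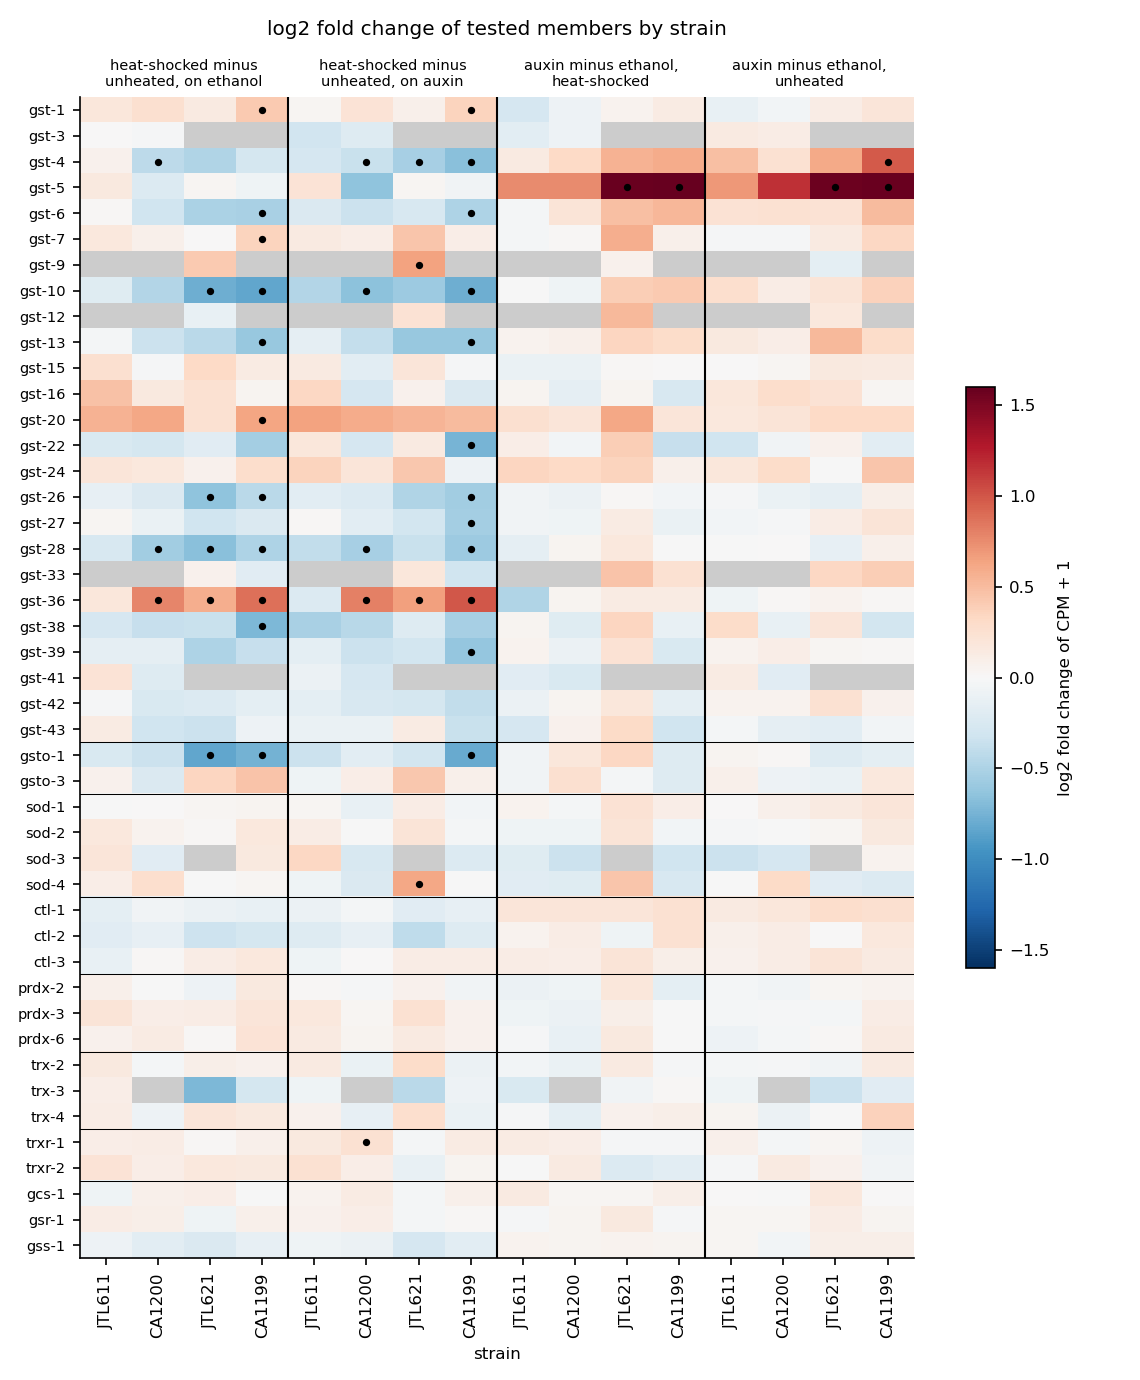
Log2 fold change on the log2(CPM + 1) scale of the 45 members tested in at least 1 strain (down the page) in the 8 heat and 8 auxin comparisons (across), with a dot where limma called the change at an adjusted p under 0.05 and grey where the member was not tested. The row of gst-36 is higher after heat in 3 strains and carries 6 dots, JTL611 carries none, and gst-5 stands out on auxin with 4.

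The transferase gst-36 (chromosome X, 9861646 to 9862960, minus strand, WBcel235) had the largest called rise after heat among the members that passed the 1 CPM filter. On ethanol it had 57.6, 53.6 and 46.3 CPM in heat-shocked CA1200, against 27.2, 32.7 and 30.1 CPM unheated. In CA1199 it had 51.2, 50.2 and 42.5 CPM with heat and 26.9, 27.3 and 22.6 CPM without, and in JTL621 it had 37.3, 33.1 and 40.9 CPM with heat and 27.1, 23.8 and 22.7 CPM without. No heat-shocked library overlapped an unheated one in these 3 strains. The log2 fold changes were 0.78 (SE 0.12, limma adjusted p = 0.000877), 0.88 (SE 0.11, adjusted p = 9.71e-05) and 0.58 (SE 0.14, adjusted p = 0.0223), in that order of strains. On auxin the same comparison gave 57.5, 56.6 and 47.9 CPM in heat-shocked CA1200 against 32.4, 24.9 and 34.7 CPM unheated. CA1199 had 52.7, 52.4 and 52.5 CPM with heat and 24.1, 29.4 and 24.7 CPM without, and JTL621 had 33.7, 49.3 and 40.7 CPM with heat and 24.3, 27.97 and 24.3 CPM without. Again the groups did not overlap, with log2 fold changes of 0.81 (SE 0.12, adjusted p = 0.000621), 0.99 (SE 0.11, adjusted p = 3.42e-05) and 0.66 (SE 0.14, adjusted p = 0.00822). The CA1200 and CA1199 calls held in all 12 other settings. The JTL621 call on ethanol was lost on leaving out replicate 1 or 3 of the heated or replicate 2 or 3 of the unheated group (0.51 to 0.57, adjusted p 0.0812 to 0.0928), and its call on auxin when only the libraries compared were fitted (adjusted p = 0.0647).

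In JTL611 gst-36 was not called. On ethanol it had 41.2, 31.2 and 31.4 CPM with heat and 26.9, 30.6 and 33.2 CPM without, and the groups overlapped (log2 fold change 0.18, SE 0.12, adjusted p = 0.466). On auxin the direction was the other way, with 24.7, 21.8 and 26.8 CPM with heat against 28.2, 29.2 and 28.4 CPM without: every heat-shocked library was below every unheated one, but the change of -0.22 (SE 0.12) was not called (adjusted p = 0.326). Within heat-shocked JTL611, auxin libraries stood below the ethanol libraries, with a log2 fold change of -0.48 (SE 0.12, adjusted p = 0.381).

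The difference between the strains was tested as JTL611 minus CA1200. For heat on auxin it was -1.03 on the log2 scale (SE 0.18, 95% interval -1.41 to -0.66, limma adjusted p = 0.00401), and gst-36 was the 1 member called of 41, against 0.39% of all genes in either direction. Over 17 other settings the difference stayed between -1.12 and -0.89 and its adjusted p between 0.00255 and 0.0209. The same difference for heat on ethanol was -0.60 (SE 0.18) and was not called (adjusted p = 0.9996). Nor was the difference for auxin during heat (-0.52) or, within JTL611, the interaction of auxin and heat (-0.40). A called and an uncalled difference thus do not show that auxin changed the difference. For JTL621 minus CA1199, differences of -0.30 on ethanol and -0.33 on auxin were not called either. JTL611 on ethanol already differs from CA1200 by the tag on HSF-1 and by any effect of TIR1 on it without auxin, and these cannot be told apart here.

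**Figure D3:**
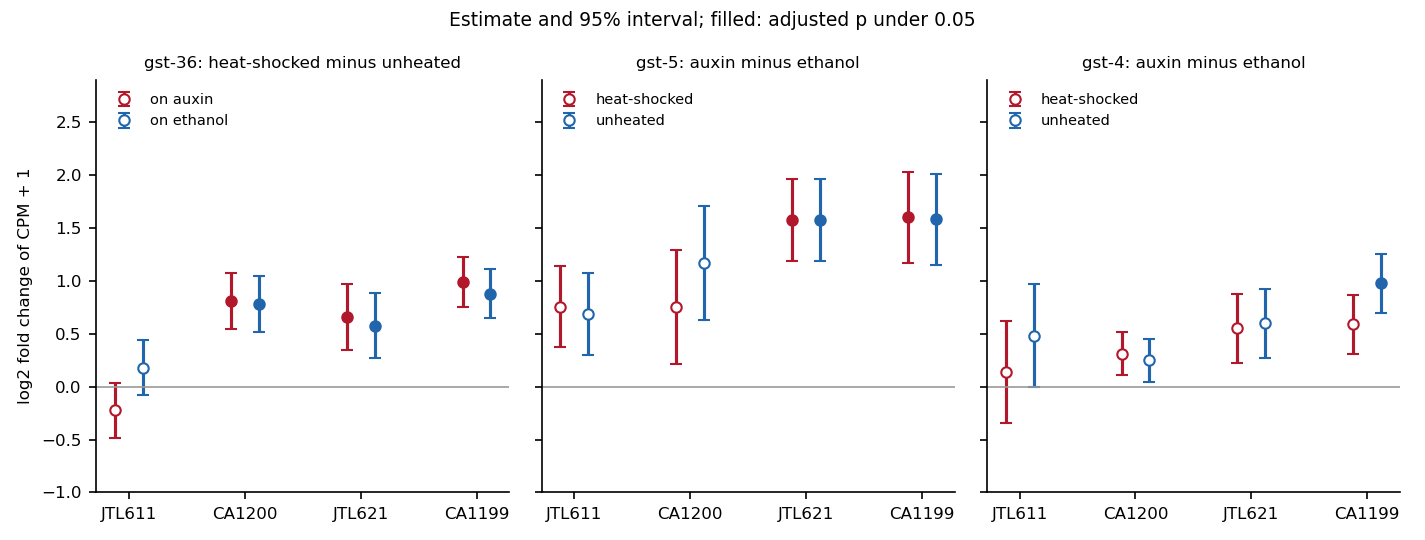
Log2 fold change with its 95% interval by strain, on the log2(CPM + 1) scale, of gst-36 after heat and of gst-5 and gst-4 on auxin, with filled points where limma called the change. The gst-36 intervals of JTL611 include 0 while those of CA1200, JTL621 and CA1199 lie above it, and the gst-5 points of JTL621 and CA1199 lie near 1.6.

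The annotated span of gst-36 overlaps by 93 bases that of scav-5, a scavenger receptor gene on the opposite strand, and whether the counting used strand is not given in the sources used here. After heat scav-5 went the other way, with log2 fold changes of -1.62 to -0.59 over the 8 comparisons, 7 of them called.

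Each of the other members called higher was called in 1 strain, and other settings added strains for gst-1, gst-20 and gst-9. In CA1199 on ethanol gst-1, the most abundant transferase, had 179, 190 and 177 CPM with heat and 152, 129 and 129 CPM without, a log2 fold change of 0.42 (SE 0.08, adjusted p = 0.00368). On auxin in that strain it had 205, 194 and 201 CPM with heat and 164, 158 and 146 CPM without (0.36, SE 0.08, adjusted p = 0.0100), a call lost under quantile normalisation (adjusted p = 0.0731) and without unheated replicate 3 (0.31, adjusted p = 0.0584). Heat-shocked and unheated libraries were separate in both cases. With the replicate number as a block gst-1 was called in CA1200 too, on ethanol (0.26, adjusted p = 0.0185) and on auxin (0.22, adjusted p = 0.0292), and its change on ethanol there also passed when only the libraries compared were fitted (adjusted p = 0.0305) and with no filter on low values.

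In the same strain on ethanol gst-7 had 79.3, 98.5 and 77.2 CPM with heat and 69.5, 64.8 and 63.3 CPM without (0.36, SE 0.10, adjusted p = 0.0278). For gst-20 the values were 7.29, 12.4 and 7.47 CPM with heat and 5.36, 4.87 and 5.77 CPM without (0.63, SE 0.17, adjusted p = 0.01995). Both pairs of groups were separate. The gst-7 call was lost without heat-shocked replicate 2 (0.25, adjusted p = 0.0759) or unheated replicate 2 or 3, and the gst-20 call without replicate 2 of either group (0.41 and 0.58, adjusted p = 0.0554 and 0.0732). Both were also lost when only the libraries compared were fitted (adjusted p = 0.113 for gst-7 and 0.0682 for gst-20), and gst-7 under quantile normalisation (adjusted p = 0.0560). The fold change of gst-20 was positive in 8 of 8 heat comparisons, between 0.24 and 0.65. With the replicate number as a block it was called in CA1200, on ethanol (0.62, adjusted p = 0.00399) and on auxin (0.60, adjusted p = 0.00425), and in JTL611, on auxin (0.65, adjusted p = 0.0157) and on ethanol (0.56, adjusted p = 0.0362). In CA1199 on auxin it passed by limma-voom, under quantile normalisation and when only the libraries compared were fitted (adjusted p = 0.0485, 0.0263 and 0.0128). Its JTL611 libraries had 13.4, 8.92 and 12.2 CPM with heat and 9.16, 6.42 and 5.51 CPM without on auxin, and each numbered library was higher with heat than its unheated counterpart.

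In CA1200 on auxin trxr-1 had 154, 149 and 148 CPM with heat and 120, 131 and 128 CPM without, with no overlap (0.25, SE 0.05, adjusted p = 0.00625). Quantile normalisation lowered that change to 0.13 (adjusted p = 0.172). In JTL621 on auxin sod-4 had 3.13, 4.94 and 4.38 CPM with heat and 2.38, 2.22 and 2.38 CPM without, again separate (0.61, SE 0.16, adjusted p = 0.0191). The highest of these values is from the library with 34.5% ribosomal RNA, and without it the change was 0.50 (adjusted p = 0.0542). The call was also lost without heat-shocked replicate 3 (0.57, adjusted p = 0.0614) or unheated replicate 2 (0.59, adjusted p = 0.0563). When only the libraries compared were fitted it was lost too (limma adjusted p = 0.129).

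In that same comparison gst-9 had 1.40, 1.91 and 1.77 CPM with heat and 0.671, 1.27 and 0.349 CPM without (0.64, SE 0.20, adjusted p = 0.0422), with no overlap. The call was lost on leaving out replicate 2 or 3 of the heated or replicate 1 or 3 of the unheated group (0.46 to 0.62, adjusted p 0.0705 to 0.160). It was also lost when only the libraries compared were fitted (limma adjusted p = 0.155). The 1 CPM filter averages heat-shocked and unheated libraries together, and gst-9 passed it in JTL621 alone. Its higher heat-shocked libraries helped it pass there, so the call is not independent of the filter. The span of gst-9 overlaps by 384 bases that of msp-33, a major sperm protein gene on the opposite strand, which rose there as well (0.89, SE 0.28, adjusted p = 0.0460). Of 9 sperm markers 5 rose in that comparison, and their summed level was 453 to 1054 CPM with heat and 292 to 446 CPM without; their part in the gst-9 value was not tested. With no filter on low values gst-9 was also called in CA1200, at 0.69 on ethanol and 0.79 on auxin, where msp-33 did not rise (-0.16 and -0.33, uncalled).

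The nearly silent gst-8 lay under the 1 CPM filter and was not tested, but its reads separated with heat. In CA1200 it had 17, 23 and 26 reads with heat and 1, 1 and 3 reads without on auxin, and 13, 14 and 18 reads with heat and 1, 3 and 1 reads without on ethanol. In CA1199 it had 40, 19 and 35 reads with heat and 4, 2 and 1 reads without on auxin, and 25, 10 and 26 reads with heat and 1, 0 and 5 reads without on ethanol. Every heat-shocked library held more reads than any unheated one there. In JTL621 on ethanol it had 17, 16 and 24 reads with heat and 0, 1 and 0 reads without. On auxin it had 25, 9 and 27 reads with heat and 12, 3 and 3 reads without. Those read counts overlap, but the library with 9 held 9000611 reads on listed genes and that with 12 held 17378578. In CPM, which scales for depth, the heat-shocked libraries were all above the unheated ones. With no filter, limma called gst-8 in these 6 comparisons, with log2 fold changes of 0.80 to 1.18 on the log2(CPM + 1) scale. JTL611's table does not list gst-8. It neighbours gst-6, gst-7 and gst-9 within chromosome II, 4879891 to 4893573, and such neighbouring copies may share reads.

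The 11 members that fell were all transferases, at levels between 59.4 CPM per kb (gst-27) and 4.26 CPM per kb (gst-38). Of these gst-28 fell in the most comparisons. On ethanol it had 7.69, 5.32 and 4.90 CPM in heat-shocked CA1200 and 10.9, 8.68 and 8.03 CPM unheated (log2 fold change -0.56, SE 0.16, adjusted p = 0.0306). In JTL621 it had 3.46, 4.00 and 4.91 CPM with heat and 8.23, 6.79 and 6.29 CPM without (-0.66, SE 0.16, adjusted p = 0.0176). In CA1199 it had 5.15, 5.78 and 4.16 CPM with heat and 7.98, 7.54 and 6.91 CPM without (-0.50, SE 0.13, adjusted p = 0.0185). All 3 pairs of groups were separate. On auxin the change was -0.53 (SE 0.16, adjusted p = 0.0300) in CA1200 and -0.58 (SE 0.13, adjusted p = 0.00892) in CA1199. Each of the 5 calls was lost in 2 to 6 of 12 other settings, with adjusted p up to 0.131, and every one of those settings kept the sign. Among the libraries whose removal lost a call were replicate 1 of the unheated group in CA1200 (-0.44 on ethanol, -0.47 on auxin), replicate 1 of either group in JTL621 (-0.57) and, in CA1199, unheated replicate 1 or 2 on ethanol (-0.46 and -0.49) and unheated replicate 3 on auxin (-0.51).

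The transferase gst-10 had 9.44, 10.8 and 7.03 CPM in heat-shocked CA1199 on ethanol and 21.9, 16.3 and 12.95 CPM unheated (-0.83, SE 0.18, adjusted p = 0.00483). On auxin it had 13.7, 11.4 and 11.9 CPM with heat and 22.4, 20.5 and 22.8 CPM without (-0.79, SE 0.18, adjusted p = 0.00745). These 2 calls held in all 12 other settings, and the libraries did not overlap. It also fell in CA1200 on auxin, with 10.3, 7.29 and 7.42 CPM with heat and 17.4, 11.5 and 12.6 CPM without (-0.66, SE 0.17, adjusted p = 0.0146). In JTL621 on ethanol it had 9.68, 9.78 and 12.1 CPM with heat and 17.4, 19.5 and 19.3 CPM without (-0.78, SE 0.22, adjusted p = 0.0397). The CA1200 call was lost without heat-shocked replicate 2 (-0.58, adjusted p = 0.0590) or unheated replicate 1 (-0.49, adjusted p = 0.0709), and the JTL621 call without any 1 of its 6 libraries (-0.88 to -0.73, adjusted p 0.0557 to 0.145). In CA1200 on ethanol gst-10 was called with the replicate number as a block (-0.47, adjusted p = 0.00589) and when only the libraries compared were fitted (adjusted p = 0.0458). The sign of gst-10 was negative in 8 of 8 heat comparisons, with JTL611 included.

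The SKN-1 reporter gst-4 (chromosome IV, 10142225 to 10143099, plus strand) fell in 4 heat comparisons. In CA1200 on ethanol it had 14.9, 14.9 and 17.6 CPM with heat and 20.2, 22.8 and 21.3 CPM without (-0.42, SE 0.10, adjusted p = 0.0102). On auxin it had 21.5, 18.1 and 20.0 CPM with heat and 26.6, 23.9 and 26.6 CPM without (-0.36, SE 0.10, adjusted p = 0.0203). In both the groups were separate; the call on auxin was lost without heat-shocked replicate 2 or unheated replicate 1 or 3 (-0.33 to -0.29, adjusted p 0.0751 to 0.0800). In CA1199 on auxin it had 29.9, 26.7 and 28.5 CPM with heat and 44.0, 50.0 and 42.9 CPM without (-0.67, SE 0.13, adjusted p = 0.00336), and in JTL621 on auxin 27.1, 24.2 and 29.4 CPM with heat and 43.4, 32.8 and 42.4 CPM without (-0.53, SE 0.15, adjusted p = 0.0294). These groups were separate too, but the JTL621 call was lost without the library of 34.5% ribosomal RNA (-0.46, adjusted p = 0.0761), without unheated replicate 1 or 3 (-0.46 and -0.48, adjusted p = 0.0674 and 0.1) and when only the libraries compared were fitted. On ethanol the change was -0.28 in CA1199 (SE 0.13, adjusted p = 0.159) and -0.48 in JTL621 (SE 0.15, adjusted p = 0.0619), neither called. The JTL621 change of gst-4 passed without unheated replicate 3 (-0.62, adjusted p = 0.0295) and when only the libraries compared were fitted (limma adjusted p = 0.0205). In JTL611 its heat-shocked and unheated libraries overlapped on both plates. The span of gst-4 shares 645 bases with the same-strand gene dhs-12, a short-chain dehydrogenase gene, whose fold changes lay between -0.10 and 0.12 over the heat comparisons with none called.

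A run of 4 transferases on the minus strand of chromosome II (15163817 to 15171916) holds gst-26, gst-27, gst-28 and gst-39, and in CA1199 on auxin all 4 were called lower. In that comparison the gst-39 call held in all 12 other settings, while the gst-27 call was lost in 4 of them and the gst-28 call in 2. There gst-26 had 24.1, 26.7 and 23.7 CPM with heat and 36.6, 38.3 and 35.8 CPM without (-0.55, SE 0.10, adjusted p = 0.00170), a call that held in all 12 other settings. On ethanol it had 22.9, 28.7 and 25.3 CPM with heat and 33.8, 33.4 and 36.8 CPM without in CA1199 (-0.43, SE 0.10, adjusted p = 0.00815), a call lost when only the libraries compared were fitted (adjusted p = 0.0662). In JTL621 on ethanol it had 21.4, 20.5 and 29.5 CPM with heat and 36.8, 36.02 and 39.2 CPM without (-0.65, SE 0.16, adjusted p = 0.0234). In each case the heat-shocked libraries were all below the unheated ones. The JTL621 call was lost without any 1 library other than heat-shocked replicate 3 (-0.67 to -0.55, adjusted p 0.0639 to 0.115). How the counting treated reads that match several such copies is not given in the sources used here, so counts of neighbouring transferases may be shared and their calls are not separate observations. The other runs of members within 10000 bases of each other are gst-20, gst-24, gst-15, gst-12 and gst-16, the 3 catalases, and gst-3 with gst-4, and 23 of the 48 members lie on chromosome II.

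The omega-class transferase gsto-1 had 7.55, 5.504 and 3.86 CPM with heat and 12, 9.88 and 8.11 CPM without in CA1199 on ethanol (-0.75, SE 0.20, adjusted p = 0.0177). On auxin it had 5.20, 3.78 and 4.97 CPM with heat and 7.80, 9.002 and 9.65 CPM without (-0.80, SE 0.20, adjusted p = 0.0134). JTL621 on ethanol had 3.88, 4.18 and 4.72 CPM with heat and 8.61, 9.16 and 7.30 CPM without (-0.83, SE 0.23, adjusted p = 0.0415). No libraries overlapped, but the 3 calls were lost in 4, 3 and 7 of 12 other settings. These include leaving out heat-shocked replicate 3 or unheated replicate 1 or 2 in CA1199 on ethanol (-0.75 to -0.54), heat-shocked replicate 2 or unheated replicate 3 on auxin (-0.69 and -0.74) and any 1 of the 6 libraries in JTL621 (-0.91 to -0.77). In CA1199 on ethanol gst-6 had 8.73, 7.54 and 6.78 CPM with heat and 11.7, 11.8 and 10.8 CPM without (-0.52, SE 0.12, adjusted p = 0.00787), a call that held in every other setting, and it was called on auxin as well, though not without heat-shocked replicate 2 or unheated replicate 3 (-0.41 and -0.46, adjusted p = 0.0654 and 0.0572). The remaining members called lower, gst-13, gst-22, gst-27, gst-38 and gst-39, were called in CA1199 alone on this fit. Of 12 other settings, 6 lost the gst-22 call on auxin, 6 the gst-38 call on ethanol, 4 the gst-13 call on auxin and 3 that on ethanol. With the replicate number as a block gst-13 and gst-38 were called lower in CA1200 on auxin as well (-0.38 and -0.44, adjusted p = 0.0310 and 0.0353). In JTL621 gst-13 was called lower on auxin with the block and by limma-voom (adjusted p = 0.0411 and 0.0476), and on ethanol when only the libraries compared were fitted (adjusted p = 0.0368). Nor was a difference between the germline TIR1 strains called. Among 40 members tested, JTL621 minus CA1199 gave 0 calls for either heat comparison, where 0 of all genes passed (0%). On ethanol and on auxin 0 and 2 members had an unadjusted limma p under 0.05, beside 183 and 1060 of 12047 genes. Limma-voom called 0 members.

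Markers of tissues moved with heat in the same libraries. Of 6 intestine markers 2 or 3 were called lower in each of the 8 heat comparisons and none higher, and their summed level in CA1199 on auxin was 583 to 696 CPM with heat and 969 to 1077 CPM without. Of 7 neuronal markers 2 to 5 were called lower, with sums of 204 to 223 CPM with heat and 259 to 294 CPM without in that comparison. JTL611, in which no member was called, showed the intestine markers lower as well, at 622 to 717 CPM with heat and 959 to 1166 CPM without on auxin. Of 5 pharynx markers 1 to 5 were called higher and of 5 body wall muscle markers 0 to 4. Of the epidermis list bli-1 alone was called, higher in all 4 strains, though not in CA1199 on ethanol. Of 8 germline and oocyte markers glh-1 was called lower in JTL611 on both plates and CA1200 on ethanol. In CA1200 and CA1199 on auxin syp-1 was called higher. The sperm markers msp-142 and gsp-3 were called lower in CA1200 on auxin, and gsp-3 among others higher in JTL621 on auxin. No marker listed for a strain stood at 0 over a group. Fewer cells of a type and less RNA per cell cannot be told apart in whole animals, and the part of these markers in the members' changes was not tested.

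**Figure D4:**
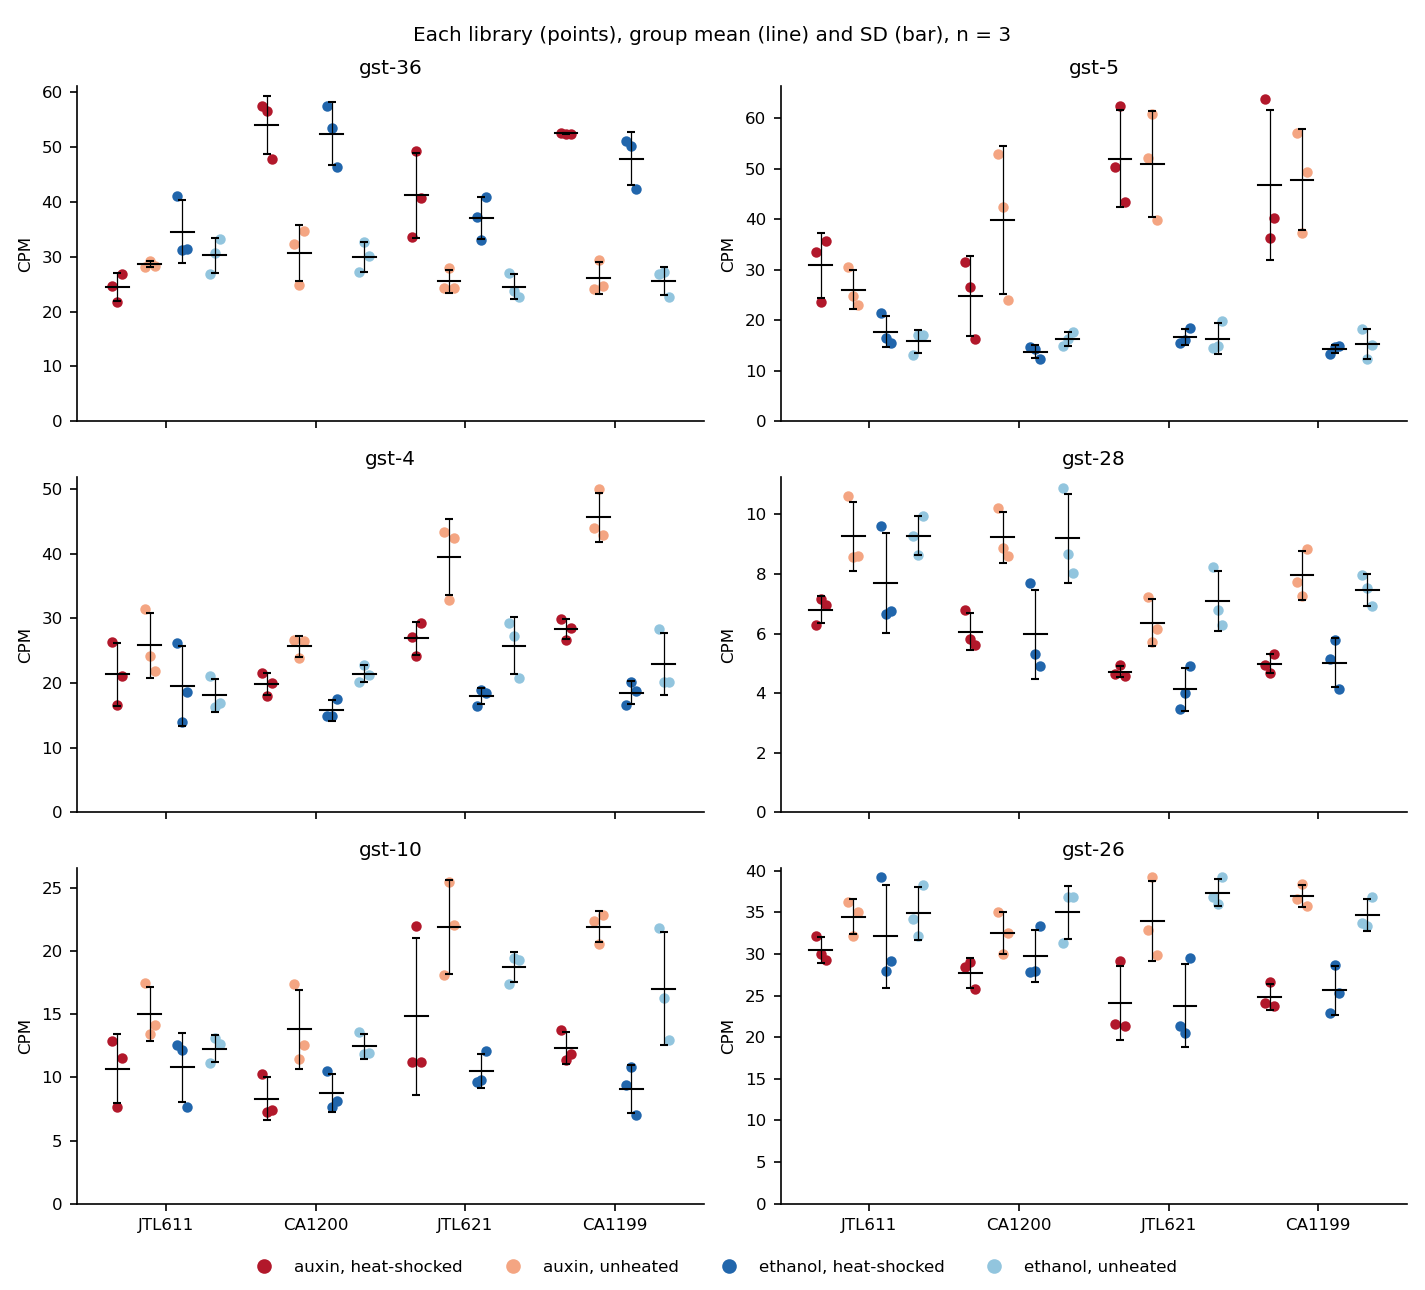
CPM of every library (points) with the group mean and SD (n = 3) for gst-36, gst-5, gst-4, gst-28, gst-10 and gst-26, by strain and, within it, auxin with heat, auxin unheated, ethanol with heat and ethanol unheated. For gst-36 the heat-shocked libraries lie above the unheated ones in CA1200, JTL621 and CA1199 and not in JTL611, and for gst-5 the auxin libraries lie above the ethanol libraries in all 4 strains.

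Of the antioxidant enzymes, trxr-1 and sod-4 passed the test after heat. Over the 8 heat comparisons the log2 fold changes of the peroxiredoxins lay between -0.09 and 0.25, those of the genes of glutathione synthesis and reduction between -0.27 and 0.13, and those of the catalases between -0.40 and 0.16. The thioredoxins lay between -0.72 and 0.29, and the lowest value was that of trx-3 in JTL621 on ethanol (SE 0.65, adjusted p = 0.567), whose libraries overlapped. The thioredoxin reductases lay between -0.12 and 0.25, with the 1 call of trxr-1, and the superoxide dismutases between -0.26 and 0.61, with the 1 call of sod-4. Some members kept 1 sign without being called in this fit: prdx-3 and prdx-6 were positive in 8 of 8 heat comparisons, at 0.03 to 0.25 and 0.02 to 0.22. The catalases ctl-1 and ctl-2 (the peroxisomal one) and gss-1 were negative in 8 of 8, at -0.18 to -0.03, -0.40 to -0.13 and -0.27 to -0.06. How many of all genes kept 1 sign over the heat comparisons was not counted. Keeping 1 sign may therefore be common, for these members as for gst-10 and gst-20. The group means of gcs-1 lay between 93.9 and 105 CPM over all 16 groups.

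Auxin moved fewer genes than heat, and among the members it called gst-5 and gst-4. The transferase gst-5 (chromosome II, 10950352 to 10951603, plus strand) was higher on auxin than on ethanol in every strain, heated or not, with no overlap between libraries in any of the 8 comparisons. In heat-shocked JTL621 it had 50.3, 62.4 and 43.3 CPM on auxin and 15.4, 15.99 and 18.5 CPM on ethanol, a log2 fold change of 1.58 (SE 0.18, limma adjusted p = 0.00101). It was the 1 member called of 42, against 0.172% of all genes. In unheated JTL621 it had 52.2, 60.8 and 39.9 CPM on auxin and 14.4, 14.9 and 19.8 CPM on ethanol (1.57, SE 0.18, adjusted p = 0.00116), again 1 of 42 against 0.172%. In CA1199, which has no tagged HSF-1, it had 63.8, 36.3 and 40.3 CPM on auxin with heat and 13.4, 14.7 and 14.9 CPM on ethanol (1.601, SE 0.20, adjusted p = 0.00158), the 1 call of 41 against 0.246%. Unheated CA1199 had 57.0, 37.2 and 49.3 CPM on auxin and 18.3, 12.3 and 15.2 CPM on ethanol (1.58, SE 0.20, adjusted p = 0.00174), 1 of 2 calls among 41 against 0.213%. The auxin libraries of these strains thus lay at 36.3 CPM or more and their ethanol libraries at 19.8 CPM or less. These 4 calls held in every other setting.

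In the strains with somatic TIR1 gst-5 was also higher on auxin but was not called. Heat-shocked JTL611 had 33.5, 23.5 and 35.7 CPM on auxin and 21.3, 16.4 and 15.5 CPM on ethanol (0.76, SE 0.18, adjusted p = 0.259). Unheated JTL611 had 30.5, 24.7 and 23.01 CPM on auxin and 13.2, 17.1 and 17.2 CPM on ethanol (0.69, SE 0.18, adjusted p = 0.9999). Heat-shocked CA1200 had 31.6, 26.6 and 16.21 CPM on auxin and 14.7, 14.4 and 12.3 CPM on ethanol (0.75, SE 0.25, adjusted p = 0.944). The lowest of these auxin libraries, replicate 3, is the CA1200 library with 18.5% ribosomal RNA. Unheated CA1200 had 52.97, 42.4 and 23.96 CPM on auxin and 14.9, 16.3 and 17.7 CPM on ethanol (1.17, SE 0.25, adjusted p = 0.134). That last change was called with the replicate number as a block (adjusted p = 0.0106) and without the auxin replicate 3 (1.49, adjusted p = 0.00485).

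Among the members tested in these strains no other was called on auxin. In JTL611, 0 of 42 members were called with heat and 0 unheated, against 0.325% and 0.0916% of all genes. An unadjusted limma p under 0.05 was met by 3 and 1 members, beside 371 and 134 of 12010 genes, and limma-voom called 0. In CA1200, 0 of 41 were called with heat and 0 unheated, against 0.0589% and 0.177% of all genes. Here 2 and 3 members had an unadjusted limma p under 0.05, beside 458 and 284 of 11878 genes, and limma-voom called 0.

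Whether the auxin effect on gst-5 differs between germline and somatic TIR1 strains without a tag was tested as CA1199 minus CA1200. The difference was 0.85 with heat (95% interval 0.12 to 1.57, adjusted p = 0.9998) and 0.41 unheated (-0.31 to 1.14, adjusted p = 0.9997), so that no difference was called, and the intervals allow one in size close to the effect itself. Tagged and untagged strains differed by -0.02 with heat (JTL621 minus CA1199, interval -0.62 to 0.57) and -0.01 unheated (-0.60 to 0.59). For JTL611 minus CA1200 the differences were 0.00 with heat (-0.70 to 0.70) and -0.48 unheated (-1.18 to 0.22). The 12-base overlap of gst-5 with nos-1 on the opposite strand goes with fold changes of -0.08 to 0.15 for nos-1 on auxin, none called.

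The other call on auxin was gst-4. In unheated CA1199 it had 44.0, 50.0 and 42.9 CPM on auxin and 28.5, 20.1 and 20.2 CPM on ethanol (log2 fold change 0.98, SE 0.13, adjusted p = 0.00237), with no overlap, and the call held in every other setting. In heat-shocked CA1199 it had 29.9, 26.7 and 28.5 CPM on auxin and 16.7, 20.1 and 18.9 CPM on ethanol, separate but not called (0.59, SE 0.13, adjusted p = 0.155). The fold change was positive in 8 of 8 auxin comparisons, between 0.14 and 0.98. It was 0.55 (SE 0.15, adjusted p = 0.774) with heat and 0.60 (SE 0.15, adjusted p = 0.436) unheated in JTL621. In CA1200 it was 0.31 (SE 0.10) with heat and 0.25 (SE 0.10) unheated, and in unheated JTL611 it was 0.48 (SE 0.22), none of them called. CA1199 minus CA1200 gave 0.73 unheated, not called (adjusted p = 0.9997), but called without the unheated ethanol replicate 1 of CA1199 (0.89, adjusted p = 0.0410). The same-strand neighbour dhs-12 lay between -0.24 and 0.15 on auxin, none called.

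Of the other members ctl-1, ctl-3, gst-13 and gst-20 were positive in all 8 auxin comparisons, at 0.14 to 0.28, 0.07 to 0.21, 0.05 to 0.52 and 0.17 to 0.62, none of them called. The share of all genes that kept 1 sign on auxin was not counted, for these members or for gst-4. The other SKN-1 reporter gcs-1 lay between -0.01 and 0.17.

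The interaction of auxin and heat asks whether auxin changed the heat effect within a strain. No member was called in JTL611, CA1200, JTL621 or CA1199, where 0.2%, 0%, 0% and 0% of all genes were. An unadjusted limma p under 0.05 was met by 1, 1, 1 and 0 members, and limma-voom called 0 in each. Of all genes 123 of 12010, 185 of 11878, 234 of 12228 and 170 of 12184 met that p, in the same order. Between strains, the remaining differences for JTL611 minus CA1200 made 0 calls among 41 members. The shares of all genes were 0.0764% for heat on ethanol, 0.229% for auxin during heat and 0.00849% for auxin at 20 °C. An unadjusted limma p under 0.05 was met by 1, 1 and 0 members, beside 332, 192 and 111 of 11782 genes. Auxin in JTL621 minus CA1199 made 0 calls among 40 members with heat and unheated (0% of all genes in both). At that p were 4 and 0 members, beside 1230 and 131 of 12047 genes. Auxin in CA1199 minus CA1200 made 0 calls among 39 members (0% in both). There 1 and 4 members were at that p, beside 230 and 187 of 11792 genes. Limma-voom called 0 in all of these. The gst-36 difference for heat on auxin, JTL611 minus CA1200, was thus the 1 difference between strains called among the members.

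The authors' deposited table for heat-shocked animals, auxin over ethanol, gives gst-5 a log2 fold change of 1.66 in CA1199 (FDR 4.49e-20), 1.63 in JTL621 (FDR 1.23e-11), 0.80 in JTL611 (FDR 0.00261) and 0.80 in CA1200 (FDR 0.0939). It gives gst-36 -0.50 in JTL611 (FDR 0.0353) and gst-4 0.61 in CA1199 (FDR 0.0176), in the authors' deposited table. At an FDR of 0.05 the authors' deposited table passed 2 of 45 members in JTL611 and 1 of 46 in JTL621. In CA1199 it passed 2 of 47 and in CA1200 0 of 47. Of all genes it passed 104 of 12640, 42 of 12801, 60 of 12742 and 54 of 12450, in that order of strains. Those JTL611 values were not called by limma here (adjusted p = 0.259 for gst-5 and 0.381 for gst-36), and neither was gst-4 in heat-shocked CA1199. The standing of these values depends on the test.

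The genes around these enzymes were counted by list. Of 9 regulators, which include genes of the SKN-1 and p38 pathways and also daf-16 and elt-3, up to 2 were called higher and up to 1 lower in a heat comparison. Over the heat comparisons 2.24% to 9.57% of all genes were called higher and 4.17% to 14.4% lower. Of 13 tested glutathione peroxidases, glutaredoxins and related enzymes up to 2 were called higher and up to 2 lower. Of the genes that supply cysteine and NADPH, 12 or 13 of them tested, 1 to 5 were called lower and up to 1 higher. Their lower calls were 5 of 13 in CA1199 on ethanol, 4 of 13 in CA1199 on auxin and 3 of 13 in JTL621 on ethanol, where 14.4%, 12.5% and 7.43% of all genes were called lower. Among these supply genes cth-2, a cystathionine gamma-lyase gene that helps make cysteine, was called lower in all 8 heat comparisons, at -1.02 to -0.62, in JTL611 as in the other strains; it was chosen after its values were seen. No gene of these lists was called in an auxin comparison.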

How the data were processed

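Messenger RNA of 48 libraries was polyA-selected and sequenced with strand-marking kits, per the labels' protocols. Per the submitters' processing notes STAR, featureCounts and edgeR were used, with no version given, and the builds WBcel235 and ce11 are listed. The authors deposited log2 values per strain that behave as log2 CPM with a prior count of 2 reads; removing the log and the offset gave whole reads within 0.05 in 100% of values up to 2000 reads. The deposited unit is a log value, so count models were not used as such, and limma-voom on the recovered reads is an alternative. The authors also deposited, per the file headers, logFC, logCPM, a likelihood ratio score (LR) and p-values (PValue and FDR) for auxin against ethanol after heat, read as log2, score and p-value.

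limma 3.58.1 in R 4.3.3 was fitted with a mean-variance trend to log2(CPM + 1) of every gene that averaged 1 CPM or more across a strain's 12 libraries, with two-sided tests and Benjamini-Hochberg adjustment, and a call at an adjusted p under 0.05. Differences between strains were differences of within-table effects over 24 libraries. The code was tested on simulated data. Members and lists were chosen with earlier results of these data known. Fold changes with SE are given for the 4 called members with the lowest adjusted p in each direction of a comparison, members called in at least 3 of 20 within-strain comparisons, and a fixed set of reporters and antioxidant genes. Gene names and positions came from Ensembl release 115 of WBcel235. Levels per kilobase divide CPM by exon length. The differences CA1199 minus CA1200 and the values of overlapping genes were added after the data were seen. The labels do not say whether a replicate number marks a shared batch; the deviations of same-numbered libraries correlated above 0.1 in all 3 pairs in 10 of 16 comparisons (CA1200 all 4; JTL611 heat and unheated auxin; CA1199 heat on auxin; JTL621 heat on ethanol and unheated auxin). Replicates differed by 2.36 to 13.4 times counting noise. Alternatives were a pseudocount of 0.5 CPM, no filter, quantile normalisation, limma-voom, only the libraries compared, a replicate block and leaving out each library.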

Additional observations from a re-analysis of the deposited data

Results flagged for a closer look

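The heat effect on gst-36 on auxin differed between 2 strains by a test of the difference itself. JTL611 minus CA1200 was -1.03 on the log2(CPM + 1) scale (SE 0.18, limma adjusted p = 0.00401). Heat-shocked libraries were below unheated ones in JTL611 (24.7, 21.8 and 26.8 CPM against 28.2, 29.2 and 28.4 CPM) and above them in CA1200 (57.5, 56.6 and 47.9 CPM against 32.4, 24.9 and 34.7 CPM), in 3 of 3 libraries each way. On ethanol the same difference was -0.60 and was not called. Direct comparisons of auxin with ethanol were not called by limma here for gst-36 either. The authors' deposited edgeR values for heat-shocked JTL611 give it -0.50 (FDR 0.0353). For auxin during heat JTL611 minus CA1200 was -0.52, and the interaction of auxin and heat in JTL611 was -0.40.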

How the results depend on the processing

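Of 46 called values of single members, 18 held in every alternative and 28 were lost in at least 1; no called value changed sign. The 18 include gst-36 in CA1200 and CA1199 and in its difference between strains, and gst-5 in JTL621 and CA1199. Counts of called members after heat moved as follows. The share of all genes called in each alternative is not given here, so these moves cannot be read as particular to the members. In CA1200 on ethanol 3 became 6 with no filter and 6 with the replicate block; on auxin 5 became 10 with the block and 3 under quantile normalisation. In JTL611 0 became 1 with the block on either plate, and unheated auxin in CA1200 gave 1 with it; the block changed no other count by over 1.5 times and lost no call. In JTL621 on ethanol 5 became 3 under quantile normalisation and 9 with only the libraries compared, and on auxin 4 became 7 by limma-voom and 0 with only the libraries compared. In CA1199 on ethanol 11 became 6 with only the libraries compared.

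Leaving out 1 library gave 2 to 4 (ethanol) and 2 to 6 (auxin) calls in CA1200, 5 to 12 on each plate in CA1199, and 0 to 2 (ethanol) and 2 to 6 (auxin) in JTL621. Low counts came in CA1200 on auxin without heat-shocked replicate 2 (2) or unheated replicate 1 (3). In CA1199 they came without unheated replicate 2 on ethanol (5) and, on auxin, without heat-shocked replicate 2 (7) or unheated replicate 3 (5). In JTL621 on ethanol every library left out lowered the count, to 0 without heat-shocked replicate 1 or unheated replicate 2. In JTL621 on auxin it was 2 without heat-shocked or unheated replicate 3. Auxin without heat gave 0 to 1 in CA1200 and in CA1199 minus CA1200. For uncalled differences in gst-5 near 0 the sign changed: JTL611 minus CA1200 with heat was 0.00 at a pseudocount of 0.5 CPM (-0.000286) and -0.26 to 0.20 without single libraries; JTL621 minus CA1199 was -0.18 to 0.22 with heat and -0.17 to 0.16 unheated. Members under about 1 CPM are limited by depth.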
